A study of Mus musculus with 4 samples.

Results

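A set of 43 genes whose loci are recurrently rearranged, activated or deleted in human leukaemia was examined for binding of topoisomerase IIβ (TOP2B) in mouse thymocytes. The genes were listed by name and were divided by role into 15 partners of fusion genes, 16 oncogenes that are activated in leukaemia and 12 suppressors that are deleted or inactivated. They are 43 of the 22350 protein-coding genes of the GENCODE M1 annotation, which is on the same mouse genome build (mm9) as the peaks. A peak was assigned to a gene when its centre lay inside the gene or within 50 kb of it, a stretch called the window below, and none was assigned to more than 1 member. The windows covered 7.56 Mb, or 0.287% of chromosomes 1 to 19 and X, and held 144 of the 17754 peaks called with the Santa Cruz antibody and 31 of the 3564 peaks called with the Novus antibody.

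ChIPseq was performed on thymocytes freshly taken from C57BL/6 wild-type mice aged 4 to 6 weeks, with no treatment and no engineered allele in either library used here. One library was made with the Santa Cruz antibody sc13059 and one with the Novus antibody NB100-40842, and the IgG and TOP2A libraries of the series were not analysed here. The thymus is a mixture of T-cell stages, and a peak does not say in which of them, or in what share of cells, the protein was bound. Each list gives positions alone, with a fixed peak width of 187 bp (Santa Cruz) or 195 bp (Novus), so that neither the height nor the read depth behind a peak is known. Since each antibody was used on 1 library, the spread between replicates is unknown, and antibody, library and depth cannot be told apart. Counts are therefore given with exact (Clopper-Pearson) 95% intervals, which cover counting error only, and no p-value was computed.

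TOP2B relieves the torsion of DNA by cutting both strands of a duplex, passing another duplex through the gap and sealing it again. Drugs that trap the enzyme on cut DNA are known to cause leukaemias with translocations, foremost those that join MLL to a partner gene. Fusions produce chimaeric proteins, whereas oncogenes such as TAL1 or TLX1 are more often switched on by a change of their surroundings and suppressors such as CDKN2A are lost by deletion.

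Peaks of the Novus list were called common when they overlapped, by 1 bp or more, a peak of the Santa Cruz list. The member windows held 9 common peaks, 1 in each of 9 loci, and 6 of these lay inside the member gene, in Aff1, Bcl2, Jak1, Ezh2, Nf1 and Dnm2. The others lay in the windows of Mllt10, Jak3 and Suz12. With an overlap of 50% or more of both peaks, the calls at Mllt10, Bcl2, Suz12 and Nf1 remained and those at Aff1, Jak1, Jak3, Ezh2 and Dnm2 did not. The Novus peaks of the common pairs are printed here because both antibodies called them: those in an intron of a member, and the one in the Mllt10 window, which carries a match to the core of the CTCF motif. Sequences are from mm9, on the plus strand, with matches to the motifs searched in capitals (the RUNX core TGTGGT, the ETS core CCGGAAG, the GC box GGGCGG and the CTCF core with up to 1 mismatch, all on both strands).
Bcl2 intron 1, chr1:108584746-108584940: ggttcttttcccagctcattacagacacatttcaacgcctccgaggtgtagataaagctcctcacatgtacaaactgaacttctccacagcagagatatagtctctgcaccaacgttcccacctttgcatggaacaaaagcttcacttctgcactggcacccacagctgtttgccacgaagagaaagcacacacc
Jak1 intron 11, chr4:100840611-100840805: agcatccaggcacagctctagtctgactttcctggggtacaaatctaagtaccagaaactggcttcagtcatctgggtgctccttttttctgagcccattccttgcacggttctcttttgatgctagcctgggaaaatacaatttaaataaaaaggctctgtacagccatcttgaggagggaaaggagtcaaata
Ezh2 intron 1, chr6:47544394-47544588: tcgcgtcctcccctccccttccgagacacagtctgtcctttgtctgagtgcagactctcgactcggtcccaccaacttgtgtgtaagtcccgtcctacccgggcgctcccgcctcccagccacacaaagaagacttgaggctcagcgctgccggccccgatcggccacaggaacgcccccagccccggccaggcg
Nf1 intron 30, chr11:79274350-79274544: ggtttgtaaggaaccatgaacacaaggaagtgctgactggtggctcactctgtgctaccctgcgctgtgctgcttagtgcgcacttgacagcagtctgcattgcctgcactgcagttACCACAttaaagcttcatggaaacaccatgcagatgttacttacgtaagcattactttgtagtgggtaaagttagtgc
Dnm2 intron 1, chr9:21240698-21240892: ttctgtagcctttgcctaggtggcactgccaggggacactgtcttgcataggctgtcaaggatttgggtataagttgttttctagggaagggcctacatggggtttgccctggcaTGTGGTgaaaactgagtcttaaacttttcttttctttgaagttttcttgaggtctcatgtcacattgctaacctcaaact
Mllt10 window, chr2:17949035-17949229: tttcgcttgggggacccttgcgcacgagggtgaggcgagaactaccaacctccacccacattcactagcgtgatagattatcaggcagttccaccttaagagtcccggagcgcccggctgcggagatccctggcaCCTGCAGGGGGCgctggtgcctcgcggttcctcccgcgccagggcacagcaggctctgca

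The peaks of Nf1 and Dnm2 each held 1 RUNX core, on the minus and the plus strand, near the middle of the peak (bases 118 to 123 and 116 to 121). In the peak of the Mllt10 window the CTCF core spanned bases 136 to 147 with 1 mismatch. No match was present within the printed peaks of Bcl2, Jak1 and Ezh2. The GC content was 66.2% in the Ezh2 peak at the promoter and 64.1% in the Mllt10 window, and between 44.6% and 48.2% in the intronic peaks of Bcl2, Jak1, Nf1 and Dnm2.

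A Santa Cruz peak was present in the windows of 35 of 43 members (81.4%, interval 66.6 to 91.6), compared with 67.6% of all coding genes. The median was 3 peaks per member and 1 per coding gene. A Novus peak was present at 19 members (44.2%, interval 29.1 to 60.1), compared with 27.6% of coding genes, and a common peak at 9 (20.9%, interval 10 to 36), compared with 9.25%. The share of coding genes was thus within the interval of the members for Santa Cruz peaks and just below it for Novus and common peaks. The 6 members with no peak of either list in their window were Runx1t1, Myc, Nkx2-1, Cdkn2a, Cdkn2b and Trp53.

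**Figure D1:**
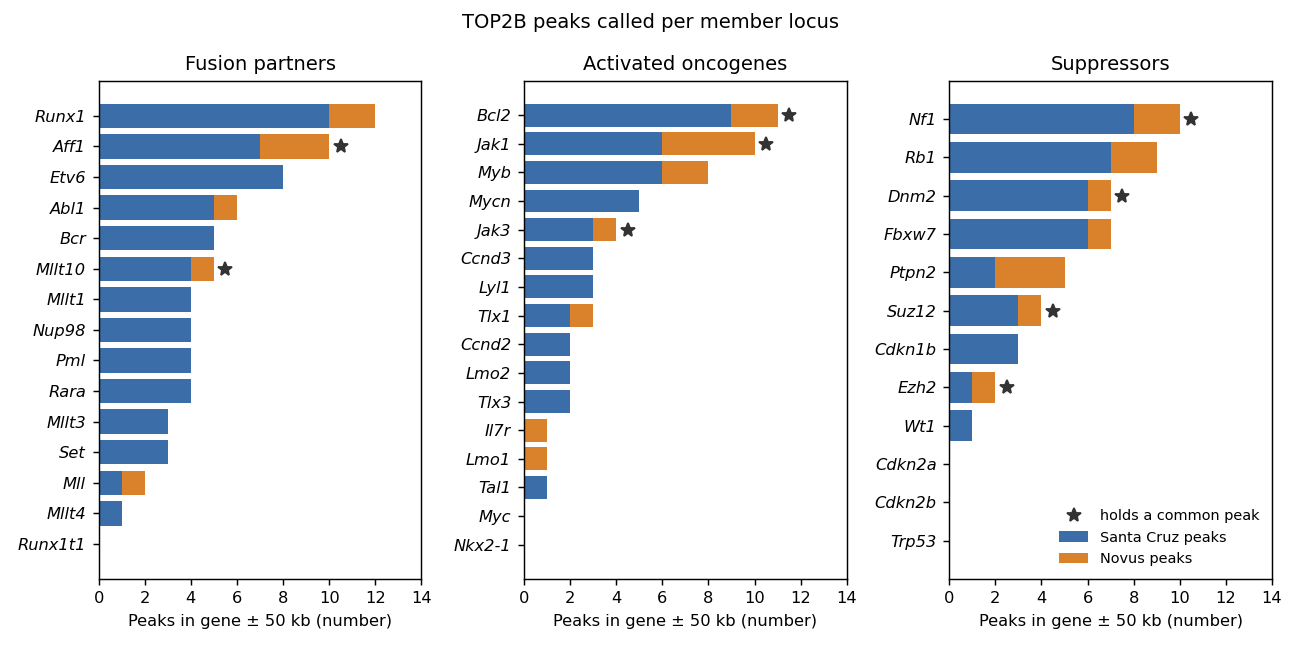
Number of peaks (x axis) in the window of each member gene (y axis), in 1 panel per role, with Santa Cruz peaks in blue, Novus peaks in orange and a star where the window holds a common peak. Runx1, with 12 peaks, and Bcl2, with 11, had the longest bars, and 6 genes had none.

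Among the fusion partners, 14 of 15 had a Santa Cruz peak in the window and the same number had one inside the gene, whereas 5 had a Novus peak and 2 a common peak. Together they held 63 Santa Cruz and 8 Novus peaks. The shares with a peak in the window were 93.3% (interval 68.1 to 99.8), 33.3% (11.8 to 61.6) and 13.3% (1.66 to 40.5). For all coding genes they were 67.6% (Santa Cruz), 27.6% (Novus) and 9.25% (common). Inside a gene, a Santa Cruz peak was present in 25.5% of coding genes, a Novus peak in 7.67% and a common peak in 2.17%. These shares are for genes of any length, and the fusion partners are long, with a median of 124 kb against 15.4 kb for all coding genes.

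Runx1, the transcription factor that founds definitive blood formation and is fused to ETV6 or RUNX1T1 in leukaemia, held the most peaks of all members, 10 Santa Cruz and 2 Novus. As many Santa Cruz peaks were found at 0.309% of coding genes. This share, like those of the same kind below, is over genes of any length, and the Runx1 window is 325 kb long. Coding genes with windows of 220 to 370 kb had a mean of 2.58 Santa Cruz peaks. Of the Santa Cruz peaks, 2 flanked the distal of its promoters, at chr16:92826381-92826567, 0.163 kb upstream of the start, and at chr16:92825672-92825858, 0.491 kb downstream. Another 7 lay further along intron 2, the long intron between the distal and proximal promoters. They stood 24.4, 26.2, 39.1, 56.2 and 58.3 kb from the distal start and 44.0 and 1.63 kb upstream of the proximal start. The Novus peak inside the gene, at chr16:92735215-92735409, was in the same intron, 6.28 kb from the nearest Santa Cruz peak. Downstream of the gene a Santa Cruz and a Novus peak lay 642 bp apart without overlap. No peak of either list was found in the introns beyond the proximal promoter. Runx1t1, a corepressor that is silent in most blood cells, had no peak in its 250 kb window, and the nearest Santa Cruz peak was 275 kb from its start.

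Mll, the histone H3 lysine 4 methyltransferase now named Kmt2a and listed as Mll1 in the annotation, held a single peak inside the gene. It was a Santa Cruz peak in intron 1 of 35, 1.25 kb from the start. The later introns, which include the breakpoint cluster of human MLL, held no peak of either list. A Novus peak lay 35.1 kb upstream, in an intron of the neighbouring gene Atp5l.

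The partners of Mll differed widely. Aff1, a subunit of the super elongation complex, held 7 Santa Cruz and 3 Novus peaks, and 1.84% of coding genes had as many of the former and 1.36% of the latter. Its common peak (Novus, chr5:104121390-104121584) lay in an exon at the very 5′ end of the annotated gene, 94 bp from the start of a transcript that is not annotated as coding and 61.7 kb from the closest coding start. A further Santa Cruz peak stood 522 bp before that 5′ end and another 5.04 kb after it. Around the coding start, a Santa Cruz peak was 1.32 kb upstream and one 6.09 kb downstream, in intron 1 of 23. The remaining Santa Cruz peaks were 27.4 kb upstream of the coding start and, in intron 7, 67.4 kb downstream of it. The other Novus peaks in the gene were at chr5:104175610-104175804 and, in intron 6, at chr5:104246935-104247129, 6.15 kb and 3.93 kb from the nearest Santa Cruz peaks.

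Mllt1, of the same complex, had a Santa Cruz peak 0.315 kb upstream of its start (chr17:57075058-57075244) and one in intron 1 among 4 in the window. Mllt3, its close paralogue, had a pair of Santa Cruz peaks in intron 2, 50.6 kb and 51.9 kb from the start, and one 2.32 kb upstream. Mllt10, a cofactor of the histone methyltransferase DOT1L, had a Santa Cruz peak 0.069 kb from a start (chr2:17986101-17986287) and its common peak 27.8 kb upstream, in an exon of the neighbouring gene A930004D18Rik. Mllt4, which encodes the cell junction protein afadin, held a single Santa Cruz peak, in intron 5 of 33. None of these 4 genes had a Novus peak other than the one shared at Mllt10.

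Etv6, an ETS-family repressor, held 8 Santa Cruz peaks and no Novus peak, and 0.949% of coding genes had as many Santa Cruz peaks. Of the 7 inside the gene, 4 were in intron 3 of 8, within 127 to 148 kb of the 5′ end, and the others in intron 1, at 5.92 and 22.7 kb from the start, and in intron 2, at 74.0 kb. None was at a start, and the peak outside the gene was 36.4 kb upstream. Abl1, a tyrosine kinase whose human breakpoints fall mostly in its long first intron, held 3 Santa Cruz peaks in intron 1 of 10. Its Novus peak, at chr2:31615277-31615471, was 0.089 kb from the internal start of the shorter coding transcript and 11.4 kb from the nearest Santa Cruz peak. Bcr, its partner in chronic myeloid leukaemia, held 4 Santa Cruz peaks inside the gene, in introns 2, 6 and 9 and in exon 24, and no Novus peak.

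The remaining fusion partners had Santa Cruz peaks only. Pml, which organises nuclear bodies, had a peak 1 bp from its start (chr9:58097375-58097561) and one in exon 2. The other 2 peaks of its window were at the start of Islr2. Rara, the retinoic acid receptor to which PML is fused, had 1 peak inside the gene, in intron 8 of 9, and of 3 peaks upstream one was at the start of the replication gene Cdc6. Nup98, a nucleoporin, had a peak in intron 1 of 32, 4.13 kb from its start, and a peak of its window was at the start of Rhog. Set, a histone chaperone, had a peak 0.406 kb from the start of a coding transcript (chr2:29921477-29921663).

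Among the activated oncogenes, 12 of 16 had a Santa Cruz peak in the window, 7 a Novus peak and 3 a common peak, with 44 Santa Cruz and 12 Novus peaks in all. The shares with a peak in the window were 75% (interval 47.6 to 92.7), 43.8% (19.8 to 70.1) and 18.8% (4.05 to 45.6). Those of all coding genes, 67.6%, 27.6% and 9.25%, were within these intervals. Inside the gene, 5 of the 16 oncogenes had a Santa Cruz peak and 2 a Novus peak. Their median length was 19.5 kb, against 15.4 kb for all coding genes, so that most of these windows were largely flank. The exceptions were Bcl2 and Jak1, with windows of 276 and 213 kb of which the gene is the larger part. Only Mycn had a peak within 1 kb of its own start.

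Bcl2, the inhibitor of apoptosis activated by translocation in lymphoma, held 9 Santa Cruz and 2 Novus peaks, or 3.98 per 100 kb of window. As many Santa Cruz peaks were found at 0.519% of coding genes of any length, whereas the Bcl2 window is long, at 276 kb. The common peak printed above was 26.0 kb from the start, and another Santa Cruz peak stood 442 bp from it in the same intron. Further Santa Cruz peaks lay in exon 1, 1.42 kb from the start, and at 10.6 kb. The second Novus peak (chr1:108514160-108514354) was at 96.6 kb and 70.1 kb from any Santa Cruz peak. Upstream, 3 Santa Cruz peaks stood 20.9 to 24.1 kb from the start, all in introns of Kdsr. Downstream, 2 Santa Cruz peaks stood between genes, 196 and 202 kb from the start.

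Jak1, a kinase of cytokine receptors with gain-of-function mutations in T-cell leukaemia, held 6 Santa Cruz and 4 Novus peaks, and 0.331% of coding genes had as many Novus peaks. The common peak was in intron 11 of 24, 97.2 kb from the start. The other Santa Cruz peaks inside the gene were in intron 1, at 39.2 and 58.0 kb, in intron 4, at 77.6 kb, and in intron 8, at 89.5 kb, and the one outside it was downstream, in an intron of Raver2. The second Novus peak inside the gene (chr4:100889496-100889690) was in intron 1, 9.05 kb from the nearest Santa Cruz peak, and the remaining Novus peaks were 27.6 and 35.6 kb upstream. The window held 4.70 peaks of both lists per 100 kb, but none was close to a coding start, the nearest being the Novus peak at 27.6 kb. Jak3, which pairs with Jak1 on the same receptors, had no peak inside the gene. Its common peak (Novus, chr8:74255542-74255736) was intergenic, 6.02 kb from a start of Fcho1, and another Santa Cruz peak was 0.543 kb from a different start of that gene.

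Myb, a transcription factor of blood progenitors and thymocytes, had no peak inside the gene but 6 Santa Cruz and 2 Novus peaks around it, the highest density of any member, with 5.88 peaks of both lists per 100 kb of window. Upstream, Santa Cruz peaks stood at 6.73, 26.7 and 42.5 kb and a Novus peak at 20.2 kb. Downstream, Santa Cruz peaks stood 55.3, 68.3 and 75.5 kb from the start, and a Novus peak 83.8 kb from it was in an intron of Ahi1. None of the Novus peaks overlapped a Santa Cruz peak, the gaps being 6.54 and 8.30 kb.

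Mycn came next in density, with 4.73 peaks per 100 kb, all of them Santa Cruz. It had 2 peaks at its start, at chr12:12949275-12949461, 0.648 kb upstream, and at chr12:12947712-12947898, 0.383 kb from the start of a coding transcript. A further pair stood 7.48 and 9.44 kb upstream, and the last was downstream, 0.908 kb from the start of Rpl36-ps3. Myc, its relative and a driver of growth and division, had no peak within its window. The nearest Santa Cruz peak was 165 kb from its start and the nearest Novus peak 585 kb.

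The transcription factors and cofactors Tal1, Lyl1, Lmo1, Lmo2, Tlx1, Tlx3 and Nkx2-1 are switched on in T-cell leukaemia. They had peaks in their windows about as often as other genes. Their expression in these thymocytes was not measured here. Of these 7 genes, 5 had a Santa Cruz peak, compared with the 67.6% of all coding genes, and 2 a Novus peak, compared with 27.6%. These are few genes, and no interval was computed. Tal1 had a single Santa Cruz peak, 58.7 kb from its start and in an intron of Cyp4x1. Lyl1 had 3 Santa Cruz peaks, of which one was at the start of Ier2 and the others in introns of Nfix. Lmo2 had 2 Santa Cruz peaks, 11.9 kb upstream and 31.2 kb downstream of a start, and Lmo1 a single Novus peak. Tlx1 had 2 Santa Cruz peaks and a Novus peak that was 1.56 kb from one of them, and Tlx3 had 2 Santa Cruz peaks, of which one was 0.191 kb from the start of Npm1. Nkx2-1 had none. No peak of this group of 7 genes was inside the gene itself.

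Ccnd2 and Ccnd3, the D cyclins of lymphoid cells, each had Santa Cruz peaks in the gene, in intron 2 of 4 for Ccnd2 and a pair in intron 1 of 6 for Ccnd3. A second Ccnd2 peak was 1.03 kb upstream of the start, just beyond the distance used here for a promoter. Il7r, the receptor for interleukin 7, had a single Novus peak, 45.0 kb upstream.

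Among the suppressors, 9 of 12 had a Santa Cruz peak in the window, 7 a Novus peak and 4 a common peak, with 37 Santa Cruz and 11 Novus peaks in all. The shares were 75% (interval 42.8 to 94.5), 58.3% (27.7 to 84.8) and 33.3% (9.92 to 65.1). For all coding genes, of any length, they were 67.6%, 27.6% and 9.25%, the last 2 just below the interval. Nf1, which turns off RAS, held 8 Santa Cruz and 2 Novus peaks. Its common peak was in intron 30 of 58, where the centres of the calls were 4 bp apart. The other Santa Cruz peaks inside the gene were in exon 8 and introns 1, 29, 37 and 58. That in intron 37 was 0.167 kb from the start of Evi2b, a gene nested in Nf1, and the start of Nf1 itself had none. Downstream of the gene, a Santa Cruz peak was intergenic, and a Santa Cruz and a Novus peak, 6.24 kb apart, were in introns of Rab11fip4.

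Rb1, which restrains entry into S phase, held 7 Santa Cruz and 2 Novus peaks. A Novus peak at chr14:73726332-73726526 was 0.800 kb upstream of its start, and the nearest Santa Cruz peak, in intron 2 and 9.34 kb from the start, was 10.1 kb away. Further upstream, a Santa Cruz peak at 17.7 kb and a Novus peak at 23.6 kb were 5.94 kb apart. Of the 4 Santa Cruz peaks inside the gene, the one in intron 17 was 0.176 kb from the start of the nested gene Lpar6. Those in introns 21 and 23 also lay within the annotated span of Rcbtb2, so that they cannot be assigned to Rb1 alone. The other 2 Santa Cruz peaks were downstream, in introns of Rcbtb2.

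Dnm2, a dynamin that pinches vesicles from membranes and is mutated in early T-cell leukaemia, held 6 Santa Cruz peaks and 1 Novus peak, or 3.83 per 100 kb. The common peak was 11.1 kb from the start, and all 3 Santa Cruz peaks inside the gene were in intron 1 of 21, at 5.37, 11 and 24.9 kb. Upstream, Santa Cruz peaks stood at 5.40 kb, in an exon of Qtrt1, and at 18.4 kb. Another Santa Cruz peak of the window was 0.569 kb from the start of Carm1. Fbxw7, the ubiquitin ligase subunit that marks MYC and NOTCH1 for destruction, held 6 Santa Cruz peaks, one of them in exon 1, 0.356 kb from the start of a coding transcript (chr3:84619453-84619639). A Novus peak was 1.11 kb upstream of that start and 1.46 kb from the Santa Cruz peak. The flanks of Fbxw7 and its gene body overlap Arfip1 in the annotation.

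Ezh2 and Suz12 belong to Polycomb repressive complex 2, which methylates histone H3 lysine 27. Ezh2 was the only member with a common peak at its own start: the Novus peak was 0.538 kb and the Santa Cruz peak (chr6:47544272-47544458) 0.664 kb downstream of it, and neither list had another peak in the window. A common peak at an own start was found at 1.27% of coding genes. The centres were 126 bp apart, and the call did not hold when the overlap had to be 50% or more of both peaks. Suz12 had no peak inside the gene, a Santa Cruz peak at the start of its neighbour Utp6 and a common peak beyond its 3′ end (Novus, chr11:79856285-79856479). The centres of that pair were 32 bp apart.

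Ptpn2, a phosphatase that counters JAK signalling, was the only member with peaks of both lists and more of the Novus list, with 3 Novus and 2 Santa Cruz peaks. Of the Novus peaks, 2 were at its start, 0.126 and 0.605 kb downstream, and the third was at the start of Cep76. The Santa Cruz peaks were 44.0 and 59.6 kb from its coding starts. Cdkn1b, an inhibitor of cyclin-dependent kinases, had 3 Santa Cruz peaks, none inside the gene and the nearest 3.03 kb upstream. Wt1 had 1 Santa Cruz peak, 17.5 kb upstream. The genes most often deleted in T-cell leukaemia, Cdkn2a and Cdkn2b, had no peak of either list in their windows of 120 and 105 kb, and the nearest Santa Cruz peaks were 137 and 165 kb from their starts. Trp53 had none either, the nearest being 66.7 kb away.

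**Figure D2:**
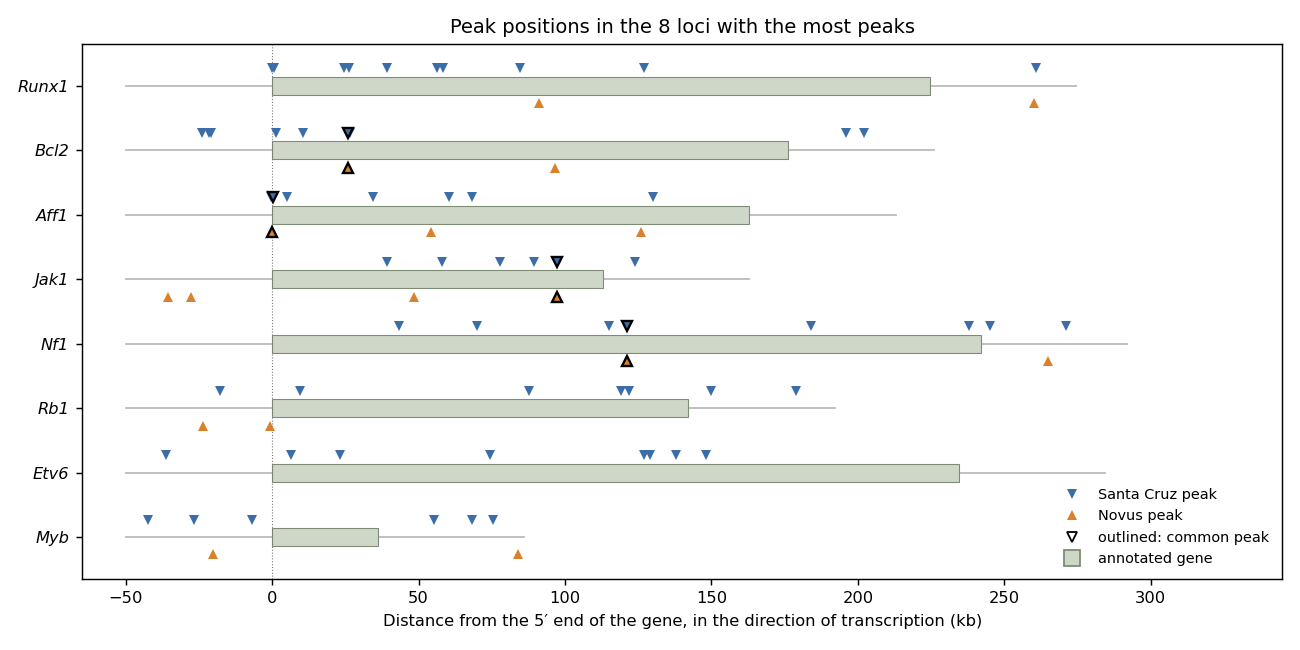
Positions of peaks in the 8 loci with the most peaks, drawn to scale as distance in kb from the 5′ end of the annotated gene in the direction of transcription, with the gene as a box and 50 kb on either side as a line. Santa Cruz peaks are above each line and Novus peaks below it, and outlined pairs are common peaks: they stand at 0.094 kb in Aff1, 26.0 kb in Bcl2, 97.2 kb in Jak1 and 121 kb in Nf1, while Myb has no peak within its box.

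A peak of either list lay within 1 kb of a coding start of the member at 11 of 43 genes (25.6%, interval 13.5 to 41.2), compared with 15.1% of coding genes. The Santa Cruz list marked the starts of Runx1, Mllt1, Mllt10, Pml, Set, Mycn, Fbxw7 and Ezh2, which is 18.6% of members against 12.1% of coding genes. The Novus list marked those of Abl1, Rb1, Ezh2 and Ptpn2, 9.3% against 5.11%. Both background shares were within the intervals (8.39 to 33.4 and 2.59 to 22.1), so that for the 43 genes together no difference from other genes was detectable. By role, the starts were those of 6 of 15 fusion partners (40%, interval 16.3 to 67.7), 1 of 16 oncogenes (6.25%, interval 0.158 to 30.2) and 4 of 12 suppressors (33.3%, interval 9.92 to 65.1). The share of coding genes, 15.1%, was just below the interval of the fusion partners and within those of the oncogenes and suppressors. A gene with several coding starts was counted at any of them, as Abl1 was at a start 71.5 kb from its 5′ end. The comparison was matched for neither the number of starts nor gene length. The differences between roles were not tested here.

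Most peaks were away from own starts. Of the 144 Santa Cruz peaks, 10 were at an own start, 63 elsewhere inside the member, 35 upstream and 36 downstream. For the 31 Novus peaks these numbers were 5, 10, 9 and 7. By the annotation as a whole, 54.9% of the Santa Cruz peaks (interval 46.4 to 63.2) were in introns, 15.3% at promoters, 6.94% in exons and 22.9% between genes. Of the Santa Cruz peaks in the windows of all coding genes, 45.9% were in introns and 31.7% between genes, and both were outside the intervals of the members (16.3 to 30.7 for intergenic peaks). The part of gene length in this difference was not tested. Of the Novus peaks, 19.4% were at promoters (interval 7.45 to 37.5), and the share in all coding windows, 32.6%, was within that interval.

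Inside the genes, Santa Cruz peaks were more frequent towards the 5′ end. Peaks at own starts were left out, and genes of at least 20 kb were cut into 4 stretches, each of 25% of the gene length. The first stretch held 28 of 63 Santa Cruz peaks of the members (44.4%, interval 31.9 to 57.5), compared with 24.2% of the 7081 peaks in all coding genes of that length. The last stretch held 14.3% (interval 6.75 to 25.4), compared with 27.2%. By role, the first stretch held 17 of 36 peaks in fusion partners (47.2%, interval 30.4 to 64.5). It held 6 of 12 in oncogenes (50%, interval 21.1 to 78.9) and 5 of 15 in suppressors (33.3%, interval 11.8 to 61.6). The 24.2% of coding genes was below the first of these intervals and within the others. The intervals take peaks as independent, though several lie in the same gene. Of 21 members with such a peak, 18 had one in the first stretch, and no single gene had more than the 4 of Bcl2. The share of genes with a peak in the first stretch was not computed for all coding genes, so the 18 members have no background beside them. Jak1 stood apart, with 5 peaks inside the gene and none in its first stretch. In 32 further leukaemia genes the first stretch held 11.4% of 35 peaks (interval 3.2 to 26.7), an interval that includes the 24.2% of all coding genes. This division was made after the positions had been seen. The members had 10 Novus peaks of this kind, of which 3 were in the first stretch.

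**Figure D3:**
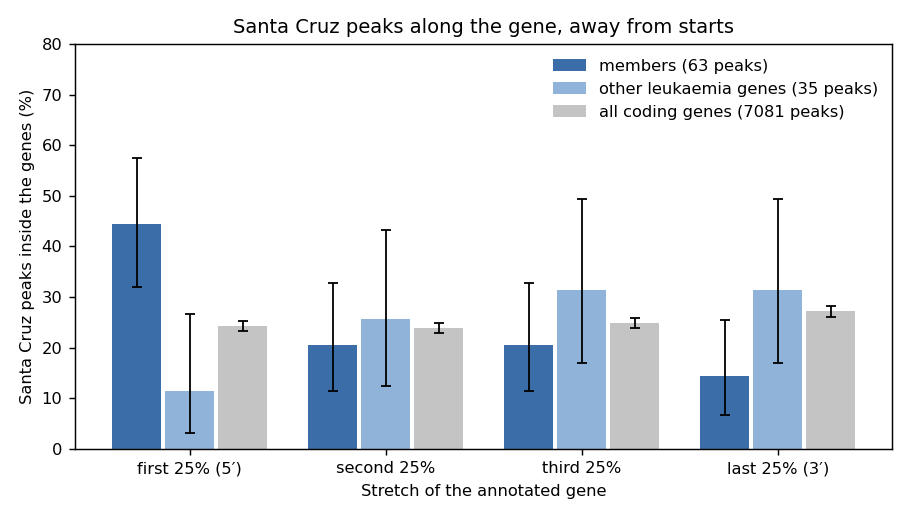
Share of Santa Cruz peaks (y axis, in %) in each 25% of the annotated gene from 5′ to 3′ (x axis), for members, 32 other leukaemia genes and all coding genes of 20 kb or more, leaving out peaks at own starts, with exact 95% intervals as bars. In the first stretch the members stand at 44.4%, all coding genes at 24.2% and the other leukaemia genes at 11.4%.

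Longer windows can hold more peaks by their length alone, and the members are longer than other genes, with a median of 47.1 kb against 15.4 kb. When genes were compared within 4 ranges of window length, the members of the shorter ranges had peaks about as often as other genes. In windows of up to 110 kb, 5 of 8 members had a Santa Cruz peak (62.5%), compared with 54.3% of coding genes. A Novus peak was present at 1 of them (12.5%), compared with 19.9%. In windows of 110 to 150 kb, 11 of 15 members had a Santa Cruz peak (73.3%), compared with 74.3% of coding genes, and 5 had a Novus peak (33.3%), compared with 30.9%. In windows of 150 to 220 kb, all 8 members had a Santa Cruz peak against 78.8% of coding genes, and 6 a Novus peak (75%, interval 34.9 to 96.8) against 36.8%. In windows of 220 to 370 kb, 11 of 12 had a Santa Cruz peak against 79.8%. The mean number of Santa Cruz peaks was higher in members in every range. From the shortest to the longest it was 1.88 against 1.18, 2.2 against 1.73, 3.5 against 2.07 and 5.67 against 2.58. For Novus peaks the means were 0.125 against 0.249, 0.4 against 0.39, 1.38 against 0.496 and 1.08 against 0.529. The background was thus within the interval in every range, apart from the numbers of peaks per gene, for which no interval was computed.

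**Figure D4:**
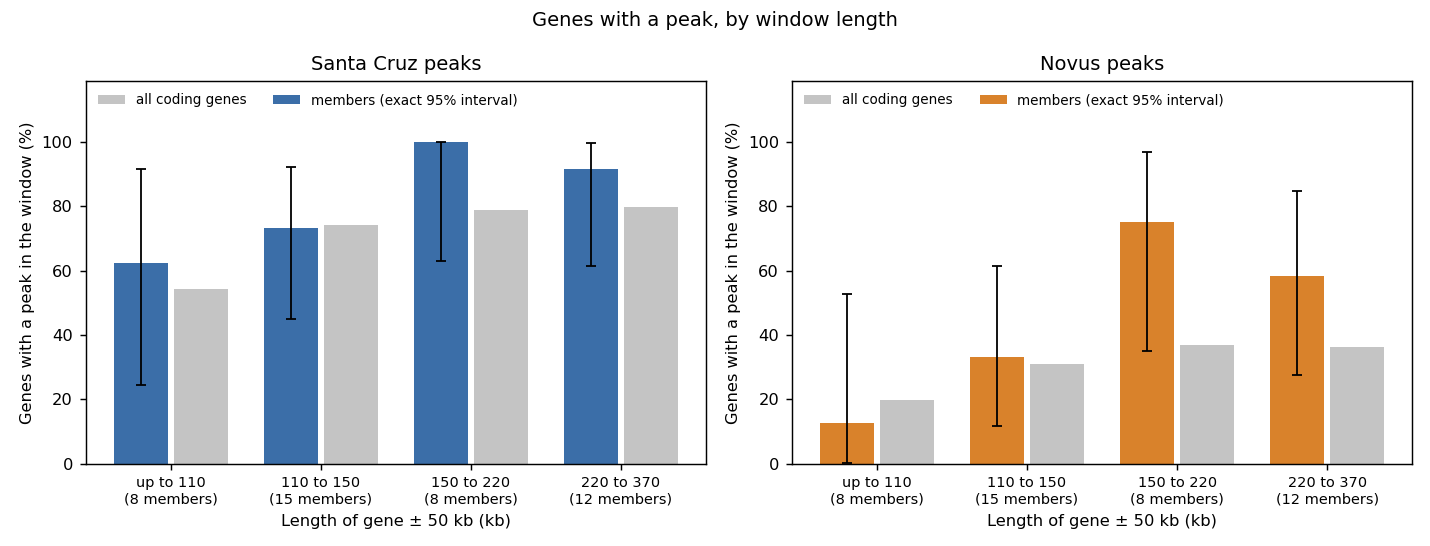
Share of genes with a peak in the window (y axis, in %) by the length of the window in kb (x axis), for Santa Cruz peaks on the left and Novus peaks on the right, with members in colour with exact 95% intervals and all coding genes in grey. In windows of 110 to 150 kb members and other genes are at 73.3% and 74.3% for Santa Cruz, while above 150 kb the member bars are higher but their intervals reach the grey bars.

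Per length, the member windows held 19.0 Santa Cruz peaks per Mb, compared with 9.13 in the windows of all coding genes, and 4.10 Novus peaks per Mb, compared with 1.97. For common peaks the densities were 1.19 and 0.545 per Mb. The density of Santa Cruz peaks was similar in the windows of fusion partners (18.6 per Mb), oncogenes (20.2) and suppressors (18.5). For Novus peaks it was 2.36 per Mb in fusion partners, 5.50 in oncogenes and 5.51 in suppressors.

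To compare the loci with their own surroundings, all peaks were displaced together by 200 kb, 500 kb, 1 Mb or 2 Mb to either side and counted again in the same windows. This is a description of the neighbourhood and not a test. The 144 Santa Cruz peaks compared with 57 to 133 after displacement (mean 86.2), a ratio of 1.67, and the 31 Novus peaks with 14 to 25 (mean 19.0), a ratio of 1.63. The 9 common peaks were within the range of 4 to 11 after displacement. Displacement by 200 kb to one side gave 133 Santa Cruz peaks, close to the count as called, and displacement by 2 Mb gave the fewest (57 and 68). Windows longer than 200 kb still hold part of their own peaks after a displacement of 200 kb.

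The difference was not the same for each role. The oncogenes had 44 Santa Cruz peaks against 17 to 32 after displacement and 12 Novus peaks against 0 to 7, with ratios to the mean of 2.06 and 2.59. The fusion partners had 63 Santa Cruz peaks against 18 to 66 and 8 Novus peaks against 2 to 10, and the suppressors 37 against 13 to 48 and 11 against 3 to 11. For both of these groups, at least 1 displacement thus gave as many peaks of each list as were called. For Santa Cruz peaks this was only a displacement of 200 kb, with 66 peaks in fusion partners and 48 in suppressors. Some windows of these groups are longer than 200 kb, among them those of Etv6 (334 kb) and Nf1 (342 kb). In such windows part of the same locus was counted again at that distance. How many of the 66 and 48 peaks this concerns was not worked out. Neither group can therefore be said to exceed its surroundings. These differences between roles were not tested either.

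**Figure D5:**
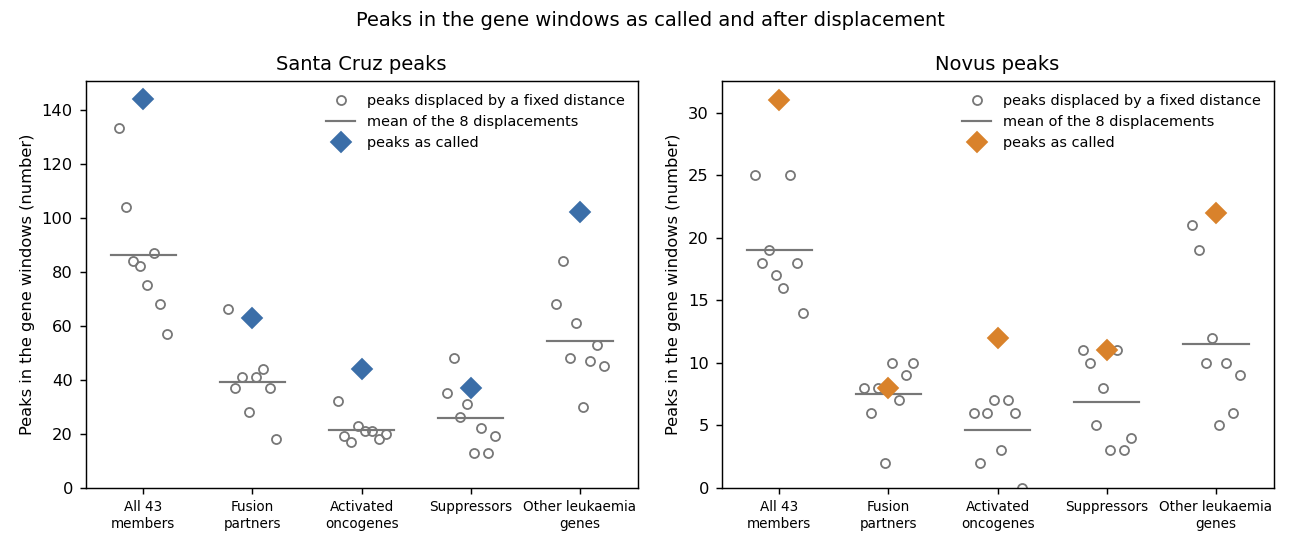
Number of peaks in the gene windows (y axis) as called (diamonds) and after each of 8 displacements (circles, with their mean as a line) for all members, each role and 32 other leukaemia genes, with Santa Cruz peaks on the left and Novus peaks on the right. The oncogenes are above all 8 circles in both panels (44 against at most 32, and 12 against at most 7). Fusion partners and suppressors are within the range of the circles, for Santa Cruz peaks only through a displacement of 200 kb.

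The 32 further genes recurrently altered in leukaemia, among them Notch1, Ikzf1, Flt3 and Gata3, were counted in the same manner. A Santa Cruz peak was present at 31 of them (96.9%, interval 83.8 to 99.9), Tet2 being the exception, a Novus peak at 13 (40.6%) and a common peak at 4 (12.5%). Their windows held 102 Santa Cruz peaks against 30 to 84 after displacement, and 22 Novus peaks against 5 to 21, with ratios to the mean of 1.87 and 1.91. The density of 18.7 Santa Cruz and 4.03 Novus peaks per Mb was close to that of the members, and nothing in these counts was particular to the members.

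The antibodies marked partly different sites in the member loci, to about the same extent as over the whole lists. Of the 31 Novus peaks, 9 were common (29.0%, interval 14.2 to 48), compared with 27.9% of the whole Novus list, and of the 144 Santa Cruz peaks 6.25% were common, compared with 5.65%. Of the other Novus peaks, 1 had a Santa Cruz peak within 1 kb, 10 had one at 1 to 10 kb and 11 had none within 10 kb. Lmo1 and Il7r had only a Novus peak, and 18 members had only Santa Cruz peaks. These distances and numbers of genes were not counted for the whole lists or all coding genes, so they have no background beside them.

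The CTCF core was found in 17 of 144 Santa Cruz peaks of the members (11.8%), compared with 9.07% of all Santa Cruz peaks, and in 1 of 31 Novus peaks (3.23%), compared with 15.5%. That one is the peak of the Mllt10 window printed above. The RUNX core was found in 20.1% of the Santa Cruz peaks, compared with 15.5%, and in 7 of 31 Novus peaks (22.6%), compared with 16.2%. A GC box was found in 9.72% and 16.1%, compared with 8.75% and 18%, and the ETS core in 1 Santa Cruz peak (0.694%), compared with 2.15%. The median GC content of the members' peaks was 49.2% (Santa Cruz) and 51.3% (Novus), compared with 48.1% and 51.8% in the whole lists. No intervals were computed for these shares, and those of the Novus peaks rest on few peaks. These are matches of letters and do not show that a factor was bound.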

How the data were processed

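TOP2B ChIPseq libraries of wild-type mouse thymocytes were made by ChIPmentation. Per the study's methods, the authors used Bowtie 1.2.0 for alignment to mm9, and HOMER (factor style) for peaks 10-fold or more over IgG, called on each library alone. The deposited lists give chromosome, start and end, and the deposited score column is 0 in every row. No height, depth or p-value was used. The Santa Cruz list has 1 repeated row, outside the member windows.

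Peak centres were assigned to genes, with 50 kb on either side, in GENCODE M1 (NCBIM37, the same build). Promoters were 1 kb around coding starts, and introns were numbered in the longest coding transcript. Overlap by 1 bp between the lists made a peak common. Members and lists were chosen with earlier results of these data known. Every member was named. Peaks were given by position if common, at an own start, or Novus and inside a member, and the 8 members with the most peaks and the 5 with the most per 100 kb were described in full. The text gives Ptpn2 by distance to its start. Of common peaks inside a member, that in the exon of Aff1 is not printed as sequence, and the sequence in the Mllt10 window was added after the motifs had been seen. Flank, promoter distance, overlap and displacements were varied. Counting and motif search were tested on simulated data. Python 3.11.15, numpy 2.4.6, scipy 1.17.1, matplotlib 3.10.9 and samtools 1.23.1 were used.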

Additional observations from a re-analysis of the deposited data

How the results depend on the processing

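No paired analysis was possible because each antibody has 1 library, and for the same reason no library could be left out. Without a flank, or with a flank of 10 kb, the windows held 70 and 91 Santa Cruz peaks and 14 and 17 Novus peaks, and 9 and 12 members had a Novus peak. With a flank of 100 kb there were 47 Novus and 17 common peaks. With an overlap of 50% or more in both lists, 4 common peaks remained, at 4 members (Mllt10, Bcl2, Suz12 and Nf1), and those at Aff1, Jak1, Jak3, Ezh2 and Dnm2 were lost. With a promoter distance of 2.5 kb, 17 Santa Cruz peaks were at a start and 17 members had a peak at an own start in either list. With displacements of 1 and 2 Mb alone, the Santa Cruz ratio was 2.01. Of the 42 alternatives to the counts and ratios, 29 stayed within 1.5 times the count reported or, for ratios, within the counting interval. Windows follow gene length by construction. The lists hold no heights, so a stricter threshold could not be tried, and a site without a peak may have been missed by depth or by the 10-fold limit.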
